A study of Mus musculus with 16 samples.

Results

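DNA methylation in mammals is written, copied and removed by a small set of enzymes. Dnmt3a and Dnmt3b place new methyl groups on cytosine, and Dnmt3l, a relative with no catalytic activity of its own, stimulates them. Dnmt1 copies the pattern onto the new strand after replication, guided by Uhrf1, which binds DNA methylated on a single strand. Tet1 and Tet2 oxidise methylated cytosine, a route to its removal. Mouse embryonic stem cells are known for high levels of Dnmt3b, Dnmt3l and Tet1. Their transcripts are described here in embryonic stem cells that carried a hairpin against Sirt1, which encodes a protein deacetylase that uses NAD, or a control hairpin, with retinoic acid (RA) or without it.

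The set was fixed by name: Dnmt1, Dnmt3a, Dnmt3b, Dnmt3l, Uhrf1, Tet1 and Tet2, 7 of the 17650 genes tested, with every probe that the array files assign to them, 11 of 41174 probes. Tet1 stands there under its older name Cxxc6 and Tet2 under the clone name E130014J05Rik. All 11 probes were well above background on all 16 arrays and none was saturated, so that all 7 genes could be tested. The genes were not chosen by a measured value of a group comparison, although earlier results of these data were known when the set was proposed.

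RNA came from E14 cells, a mouse embryonic stem cell line, with a lentiviral hairpin that was stably expressed. All cells grew in serum medium with leukemia inhibitory factor (the labels call it leukocyte inhibitory factor), a cytokine that holds back differentiation, and were treated for 2 days. The groups were sh-SIRT1 with 20 nM RA (n = 6), sh-SIRT1 with the vehicle ethanol (n = 3), sh-Control with 20 nM RA (n = 4) and sh-Control with ethanol (n = 3). All cells, the controls included, thus carried a lentiviral vector; the sources used here do not say whether a line is a pool or a clone. Each hairpin is represented by its own line, so that an effect of Sirt1 loss and a difference in the history of the lines cannot be told apart. The design text mentions duplicates without saying which arrays they are, so the p-values reflect how much arrays of a group differ, and that spread may be technical. The number of arrays limits the precision.

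Values are log2 intensities above the 75th percentile of the same array. They compare a probe with itself across arrays and not one gene with another. On bulk RNA, a shift in the share of cells that express a gene and a change in the level per cell cannot be told apart. A difference was called where its adjusted p was under 0.05 in limma (all genes in the same fit, Benjamini-Hochberg adjustment), and each difference is given with its standard error (SE).

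Some arrays stood apart from others of their group, as the SD over genes of the log2 difference between arrays shows. In sh-SIRT1 cells RA arrays 1 and 2 were close to each other (0.322) and farther from arrays 3 to 6 (0.527 to 0.617). In sh-Control cells RA arrays 3 and 4 were close (0.211), while arrays 1 and 2 differed from each other (0.636) about as much as array 2 did from arrays 3 and 4 (0.651 and 0.662). Vehicle array 1 differed from vehicle arrays 2 and 3 in both lines (0.519 to 0.557, against 0.294 and 0.321 between arrays 2 and 3). In the sh-Control line, RA arrays 2 to 4 had almost no signal for the Y-linked gene Ddx3y (-6.91, -8.01 and -8.12, not well above background), while RA array 1 was at 0.23 and the 3 vehicle arrays were at 1.60, 0.39 and 0.33. On all 9 sh-SIRT1 arrays it lay between 0.41 and 1.26. Eif2s3y, also Y-linked, was at -2.89, -2.53 and -2.51 on those 3 arrays and between 0.98 and 2.16 on the other 13. For sh-Control RA arrays 2 to 4, an effect of RA and a difference in the cell population therefore cannot be told apart, which touches each RA change in sh-Control cells and each hairpin difference under RA. With sh-Control RA array 1 as the only one of its group, the RA differences in sh-Control cells were -1.0 for Dnmt3b, -1.45 for Tet1, -0.59 for Dnmt1 and -0.48 for Dnmt3l. The hairpin difference under RA was then -1.18 for Dnmt3b and -0.63 for Tet1. Sirt1 itself followed the labels, at 0.92 to 1.59 against 3.28 to 3.48 under RA and at 1.83 to 1.89 against 3.53 to 3.85 in vehicle, sh-SIRT1 before sh-Control. Across arrays the 75th percentile of intensity ranged from 684 to 1155, and 60.3 to 68.6% of the spots were well above background. Each slide held arrays of several groups, and slides and scan times coincided.

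All 7 tested markers of embryonic stem cells were well above background in every group. This level does not tell cell types apart, since 60.3 to 68.6% of all spots on an array reached it. All 12 primitive endoderm markers reached it as well in sh-Control cells under RA. The starts of the 3 genes that moved most, Dnmt3b, Dnmt3l and Tet1, are shown to let a reader see their CpG content, since CpG is the substrate of these enzymes. The 250 bases before the annotated start are taken from the RefSeq promoter table (GRCm38.p6), which holds all 7 genes, and CG is in capitals. The window of Dnmt3b is chr2:153649199-153649448 on the + strand, that of Dnmt3l, for the first of 3 annotated starts, is chr10:78042037-78042286 on the + strand, and that of Tet1 is chr10:62887325-62887574 on the - strand. Which of the Dnmt3l starts these cells use was not tested.
Dnmt3b: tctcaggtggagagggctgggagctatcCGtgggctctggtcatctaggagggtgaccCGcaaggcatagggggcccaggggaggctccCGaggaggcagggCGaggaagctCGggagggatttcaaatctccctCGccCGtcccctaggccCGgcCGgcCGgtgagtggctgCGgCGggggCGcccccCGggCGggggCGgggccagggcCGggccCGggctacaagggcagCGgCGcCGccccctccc
Dnmt3l: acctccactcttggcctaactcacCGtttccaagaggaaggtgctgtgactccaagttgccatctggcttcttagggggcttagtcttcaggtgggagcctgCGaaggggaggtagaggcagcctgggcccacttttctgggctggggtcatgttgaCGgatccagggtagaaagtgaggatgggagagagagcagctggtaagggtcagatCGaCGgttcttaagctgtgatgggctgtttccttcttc
Tet1: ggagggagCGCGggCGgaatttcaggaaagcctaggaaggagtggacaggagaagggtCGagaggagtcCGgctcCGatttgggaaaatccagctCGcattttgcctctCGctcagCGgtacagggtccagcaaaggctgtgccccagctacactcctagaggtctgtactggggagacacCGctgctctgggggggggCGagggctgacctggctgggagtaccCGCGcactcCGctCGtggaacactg

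The Dnmt3b window holds 21 CG, and 16.3% of the 32851 windows in the table hold as many. The Tet1 window holds 15 (27.3% hold as many). The 3 starts of Dnmt3l hold 5, 4 and 3, below the median of 6 over all windows. The Tet2 window, of a gene that was not called, holds 51 CG, and 0.067% of windows hold as many. The 3 Dnmt3a windows, also of a gene that was not called, hold 38, 40 and 15, and the 3 Dnmt1 windows hold 2, 7 and 26. The 2 Uhrf1 windows hold 10 and 30. The letters AGGTCA, the hexamer that retinoid receptors are known to bind in pairs, were searched on both strands. They occur once each in the windows of Tet1, of start 3 of Dnmt3a and of start 2 of Uhrf1. The other windows of the 7 genes do not hold them, and 14.0% of all windows do. A match is a description of these letters only.

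Dnmt3b, Dnmt3l and Tet1 were lower under RA than in vehicle by more than 1 log2 unit in both lines. Dnmt1 was lower by less, as was Uhrf1 in sh-SIRT1 cells, while Dnmt3a and Tet2 were not called. In sh-Control cells an effect of RA cannot be told apart from the difference in cell population described above. With sh-Control RA array 1 as the only one of its group, the Dnmt3l difference was -0.48. In sh-SIRT1 cells 5 of 7 members were lower and none was higher, beside 58.5% of all genes called (35.2% lower). In sh-Control cells 4 of 7 were lower and none was higher, beside 47.1% of all genes called (27.2% lower). The median difference of the 7 members was -0.42 in sh-SIRT1 cells and -0.43 in sh-Control cells, beside -0.13 and -0.14 over all genes tested. The 2 lines share no array in these RA comparisons. Their same-numbered arrays deviated together from the group means, however, so that the comparisons are not independent.

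**Figure D1:**
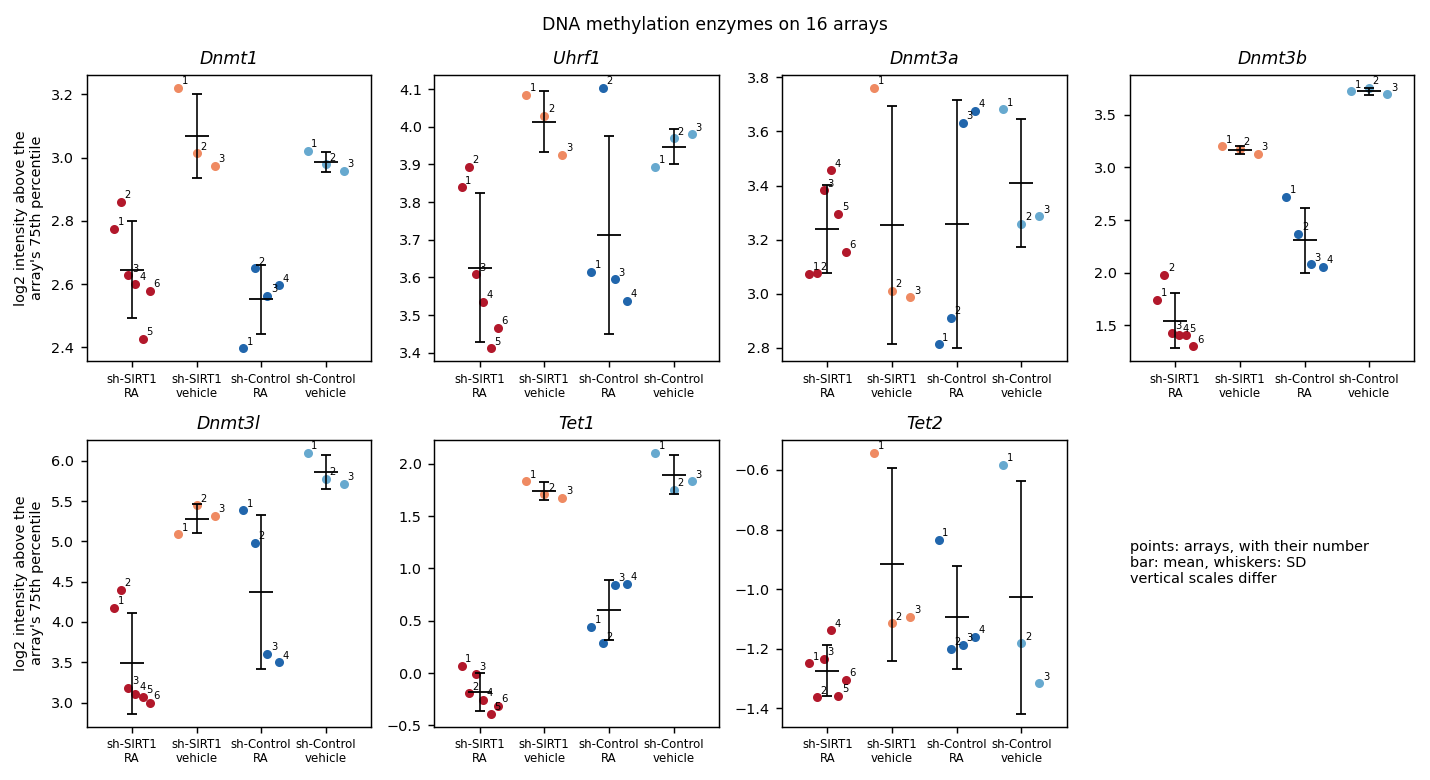
Log2 intensity above the array's 75th percentile (vertical axes, scales differ) of the 7 genes on each of 16 arrays, in 4 groups (horizontal axes). Points are arrays with their number, bars are group means and whiskers are SD. Dnmt3b lies between 1.30 and 1.98 in sh-SIRT1 cells under RA, below all other groups, and Dnmt3l under RA splits between arrays 1 and 2 and the rest.

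Dnmt3b, the methyltransferase of new sites (probe at chr2:153428204-153428263, mm7, + strand), differed between all 4 groups without overlap. In sh-SIRT1 cells it was at 1.74, 1.98, 1.43, 1.40, 1.41 and 1.30 under RA and at 3.20, 3.17 and 3.13 in vehicle. The sh-Control line gave 2.72, 2.37, 2.08 and 2.06 under RA and at 3.72, 3.76 and 3.69 in vehicle. The vehicle arrays were close to each other, and RA arrays 1 and 2 lay above the other RA arrays in both lines. RA changed Dnmt3b by -1.62 ± 0.16 in sh-SIRT1 cells (a 3.08-fold fall, limma adjusted p = 1.42e-06) and by -1.42 ± 0.17 in sh-Control cells (2.67-fold, adjusted p = 1.81e-05). Without RA arrays 1 and 2 the changes were -1.78 and -1.66, and within slides they ranged from -1.79 to -1.42 and from -1.64 to -0.97.

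Dnmt3b was also lower with the Sirt1 hairpin. Under RA the sh-SIRT1 line was at 1.54 ± 0.26 (SD, n = 6) and the sh-Control line at 2.31 ± 0.31 (n = 4), a difference of -0.76 ± 0.14 (SE, limma adjusted p = 0.00248). In vehicle the means were 3.17 ± 0.04 and 3.72 ± 0.03 (n = 3 each) and the difference was -0.56 ± 0.18, which missed the threshold in the fit of all 16 arrays (adjusted p = 0.0760) although the groups did not overlap. With same-numbered arrays of the 2 lines as pairs, the vehicle difference was -0.56 ± 0.11 and passed (limma adjusted p = 0.0164), beside 19.3% of all genes called in that fit. Within slides the hairpin difference ranged from -1.20 to -0.67 under RA (3 slides) and from -0.63 to -0.55 in vehicle (2 slides). The 3 vehicle pairs gave -0.52, -0.58 and -0.57, and the 4 RA pairs gave -0.98, -0.39, -0.65 and -0.65. The response to RA did not pass as different between the lines (-0.21 ± 0.23, 95% interval -0.71 to 0.30).

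Dnmt3l, the cofactor of the Dnmt3 enzymes (probe at chr10:77717971-77718030, mm7, + strand), had the widest spread of the set. In sh-SIRT1 cells it was at 4.18, 4.40, 3.18, 3.11, 3.07 and 3.00 under RA, against 5.09, 5.45 and 5.31 in vehicle. The sh-Control arrays gave 5.38, 4.99, 3.60 and 3.50 under RA, against 6.10, 5.78 and 5.71 in vehicle. RA arrays 1 and 2 lay above the other RA arrays in both lines, with no overlap. RA changed it by -1.79 ± 0.42 in sh-SIRT1 cells (3.46-fold, limma adjusted p = 0.00208) and by -1.49 ± 0.45 in sh-Control cells (2.81-fold, adjusted p = 0.0146). Without RA arrays 1 and 2 the changes were -2.19 and -2.31, and with these RA arrays alone they were -0.99 (adjusted p = 0.00300) and -0.68 (adjusted p = 0.0184). The call in sh-Control cells was kept in 18 of 23 alternatives. It ended with sh-Control vehicle array 1 left out (-1.37, adjusted p = 0.0545) or vehicle array 1 of both lines (adjusted p = 0.0638), with the slide as a block (-1.29, adjusted p = 0.0582) and with only the arrays compared in the fit (adjusted p = 0.0534). With sh-Control RA array 1 as the only one of its group the change was -0.48, and the adjusted p of 0.493 assumes that this array varies like those of the other groups.

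Between the hairpins, Dnmt3l was lower in the sh-SIRT1 array of all 7 pairs, which follow the array numbers and need not be independent. The pair differences were -1.21, -0.59, -0.42 and -0.39 under RA and -1.01, -0.33 and -0.40 in vehicle. Neither passed in the fit of all 16 arrays, at -0.88 ± 0.38 under RA (limma adjusted p = 0.121), where the groups overlapped, and at -0.58 ± 0.48 in vehicle (adjusted p = 0.513), where they did not. As pairs, the difference under RA was -0.65 ± 0.17 and passed (limma adjusted p = 0.0277, beside 28.4% of all genes called in that fit), and the difference in vehicle did not (adjusted p = 0.0791).

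Dnmt3a, the other methyltransferase of new sites, was not called in any comparison. Its brightest probe joins exons (chr12:3825243-3826024, mm7, + strand, a span of 782 bases for a probe of 60). It read 3.07, 3.08, 3.38, 3.46, 3.29 and 3.15 in sh-SIRT1 cells under RA and 3.76, 3.01 and 2.99 in vehicle. In sh-Control cells it read 2.81, 2.91, 3.63 and 3.68 under RA and 3.68, 3.26 and 3.29 in vehicle. The RA arrays 1 and 2 were here the lowest of their group, the opposite of Dnmt3b and Dnmt3l, and vehicle array 1 was the highest of its group. The RA difference was -0.01 ± 0.22 in sh-SIRT1 cells (95% interval -0.48 to 0.45) and -0.15 ± 0.24 in sh-Control cells (-0.66 to 0.35). A fall as large as that of Dnmt3b lies outside both intervals, while smaller changes within them remain possible. The other 2 probes (chr12:3826602-3826661 and chr12:3830965-3831024) were not called either, and the third differed in sign under RA in sh-SIRT1 cells (0.36 ± 0.21, limma adjusted p = 0.163).

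Tet1 had the lowest adjusted p of the set for RA in both lines. This oxidase, which starts the conversion of methylated cytosine, was read by a single probe (chr10:62332082-62332141, mm7, - strand). It was at 0.07, -0.19, -0.01, -0.25, -0.39 and -0.32 in sh-SIRT1 cells under RA, against 1.83, 1.71 and 1.68 in vehicle. The sh-Control line had 0.44, 0.29, 0.84 and 0.85 under RA, against 2.11, 1.75 and 1.83 in vehicle. The RA groups lay below the vehicle groups of their line, and all sh-SIRT1 RA arrays lay below all sh-Control RA arrays. RA changed Tet1 by -1.92 ± 0.14 in sh-SIRT1 cells (3.79-fold lower, limma adjusted p = 1.08e-07) and by -1.29 ± 0.15 in sh-Control cells (2.45-fold lower, adjusted p = 1.53e-05). Within slides the changes ranged from -2.22 to -1.78 and from -1.39 to -1.26.

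The hairpin difference of Tet1 was seen under RA, where the lines were at -0.18 ± 0.18 (sh-SIRT1, SD, n = 6) and 0.61 ± 0.29 (sh-Control, n = 4). It was -0.79 ± 0.13 (limma adjusted p = 0.00103), and 2 of 7 members were called in this comparison (Tet1 and Dnmt3b, both lower), beside 20.5% of all genes (11.9% lower). Within slides it ranged from -1.10 to -0.57. In vehicle the difference was -0.16 ± 0.16 (adjusted p = 0.614). In vehicle 0 of 7 members were called by limma, beside 8.70% of all genes, and 1, Dnmt3b, had an unadjusted p under 0.05. Stem cell genes differed under RA as well. Of the 7 tested stem cell markers 3 were lower in sh-SIRT1 than in sh-Control cells and 0 higher (median -0.47). Nanog differed by -0.76 ± 0.13 (limma adjusted p = 0.00133).

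Whether the RA response itself differed between the lines was tested as an interaction. For Tet1 it was -0.63 ± 0.21 (limma adjusted p = 0.101), and limma called 0 of 7 members, beside 3.73% of all genes, with 1 member, Tet1, at an unadjusted p under 0.05. With the arrays as pairs it was -0.55 (adjusted p = 0.112), beside 9.19% of all genes called in that fit. The 4 RA pairs gave Tet1 differences of -0.37, -0.48, -0.85 and -1.11. The result turned on the arrays used. Without RA arrays 1 and 2 the Tet1 interaction by limma was -0.93 ± 0.17 (adjusted p = 0.00439). In the sh-Control RA group that fit keeps only arrays 3 and 4. These were close to each other (SD of the log2 difference 0.211) and had almost no Ddx3y signal (-8.01 and -8.12). Without sh-Control RA array 2 alone the Tet1 interaction was -0.74 (adjusted p = 0.0488), and with RA arrays 1 and 2 alone it was -0.27 (adjusted p = 0.636). With RA arrays 1 and 2 alone, the hairpin differences under RA were no longer called either, at -0.43 for Tet1 (adjusted p = 0.224) and -0.68 for Dnmt3b (adjusted p = 0.0644).

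**Figure D2:**
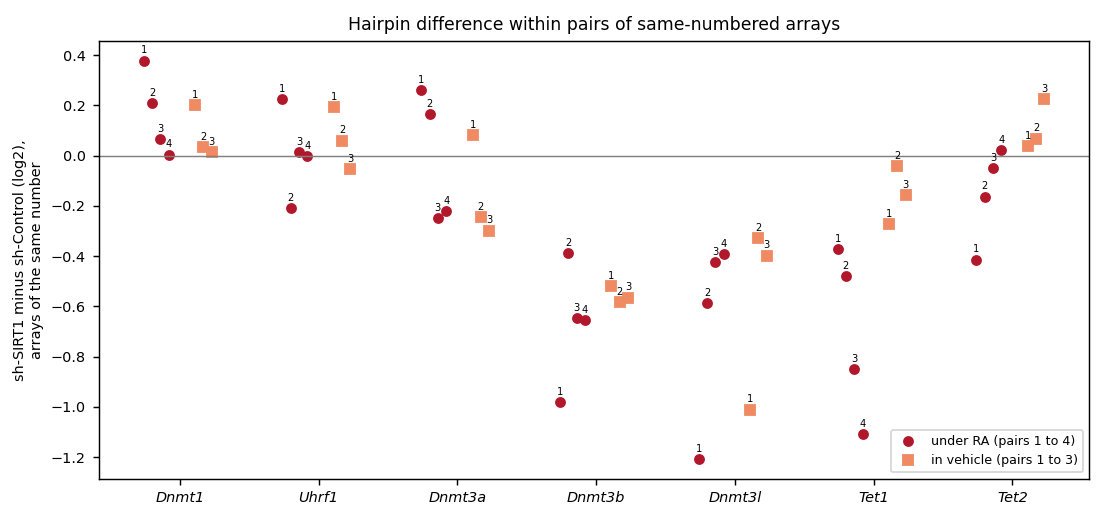
Difference in log2 intensity between the sh-SIRT1 and the sh-Control array of the same number (vertical axis) for the 7 genes (horizontal axis), under RA (circles, 4 pairs) and in vehicle (squares, 3 pairs), with pair numbers. Dnmt3b, Dnmt3l and Tet1 lie below 0 in all 7 pairs, and Tet1 reaches -1.11 in RA pair 4. Pairs follow the array numbers, which the labels do not define as a pairing, and need not be independent.

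Tet2, a related oxidase, was read by 2 probes (chr3:133261322-133261381 and chr3:133263123-133263182, mm7, - strand). The brighter one was at -1.25, -1.36, -1.23, -1.14, -1.36 and -1.30 in sh-SIRT1 cells under RA and at -0.54, -1.11 and -1.09 in vehicle. The sh-Control arrays read -0.84, -1.20, -1.19 and -1.16 under RA and at -0.58, -1.18 and -1.32 in vehicle. In 3 of the 4 groups array 1 was the highest. The RA difference was -0.36 ± 0.16 in sh-SIRT1 cells (limma adjusted p = 0.0679, groups that did not overlap) and -0.07 ± 0.17 in sh-Control cells (adjusted p = 0.764). It passed in sh-SIRT1 cells with another scaling, at -0.61 with arrays scaled to their median (adjusted p = 0.00779) and at -0.42 with quantile normalisation (adjusted p = 0.0395). The other probe was called lower under RA in sh-Control cells (-0.44, adjusted p = 0.0457, beside 45.6% of probes called when all are tested singly), where the first was not, so that the 2 probes disagree.

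The maintenance pair changed less. Dnmt1, which copies methylation at replication, was read by a probe that joins exons (chr9:20784085-20784453, mm7, - strand, a span of 369 bases). Its values were 2.77, 2.86, 2.63, 2.60, 2.43 and 2.58 in sh-SIRT1 cells under RA and 3.22, 3.01 and 2.97 in vehicle. In sh-Control cells they were 2.40, 2.65, 2.56 and 2.60 under RA and 3.02, 2.98 and 2.96 in vehicle. In each line all RA arrays lay below all vehicle arrays. RA changed it by -0.42 ± 0.10 in sh-SIRT1 cells (1.34-fold, limma adjusted p = 0.00182) and by -0.43 ± 0.10 in sh-Control cells (1.35-fold, adjusted p = 0.00391). Relative to the median of all genes these falls were -0.29 and -0.30. With quantile normalisation the fall in sh-SIRT1 cells was -0.16 and was not called (adjusted p = 0.143). With RA arrays 1 and 2 alone it was -0.25 (adjusted p = 0.112).

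Uhrf1, which brings Dnmt1 to newly copied DNA, had 2 probes (chr17:54481483-54481542 and chr17:54481380-54481439, mm7, + strand) side by side in the genome. The brighter one read 3.84, 3.89, 3.61, 3.54, 3.41 and 3.47 in sh-SIRT1 cells under RA, against 4.08, 4.03 and 3.93 in vehicle. In sh-Control cells it read 3.62, 4.10, 3.59 and 3.54 under RA, against 3.89, 3.97 and 3.98 in vehicle, and RA array 2 stood above all sh-Control vehicle arrays. The change under RA was -0.39 ± 0.13 in sh-SIRT1 cells (1.31-fold, limma adjusted p = 0.0218) and -0.57 ± 0.14 by the other probe (adjusted p = 0.00331, beside 58.1% of probes called when all are tested singly). The change in sh-Control cells was -0.23 ± 0.14 (adjusted p = 0.192), and without RA array 2 it was -0.36 (adjusted p = 0.0259). The call in sh-SIRT1 cells was kept in 16 of 23 alternatives. It was lost with normexp background correction (-0.45, adjusted p = 0.0665), with quantile normalisation (-0.06, adjusted p = 0.691), without sh-SIRT1 vehicle array 1 (-0.35, adjusted p = 0.0788) or 2 (-0.38, adjusted p = 0.0622), without vehicle array 1 of both lines (adjusted p = 0.0861), with the replicate number as a block over all arrays (-0.23, adjusted p = 0.115), and with RA arrays 1 and 2 alone (-0.15, adjusted p = 0.426).

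**Figure D3:**
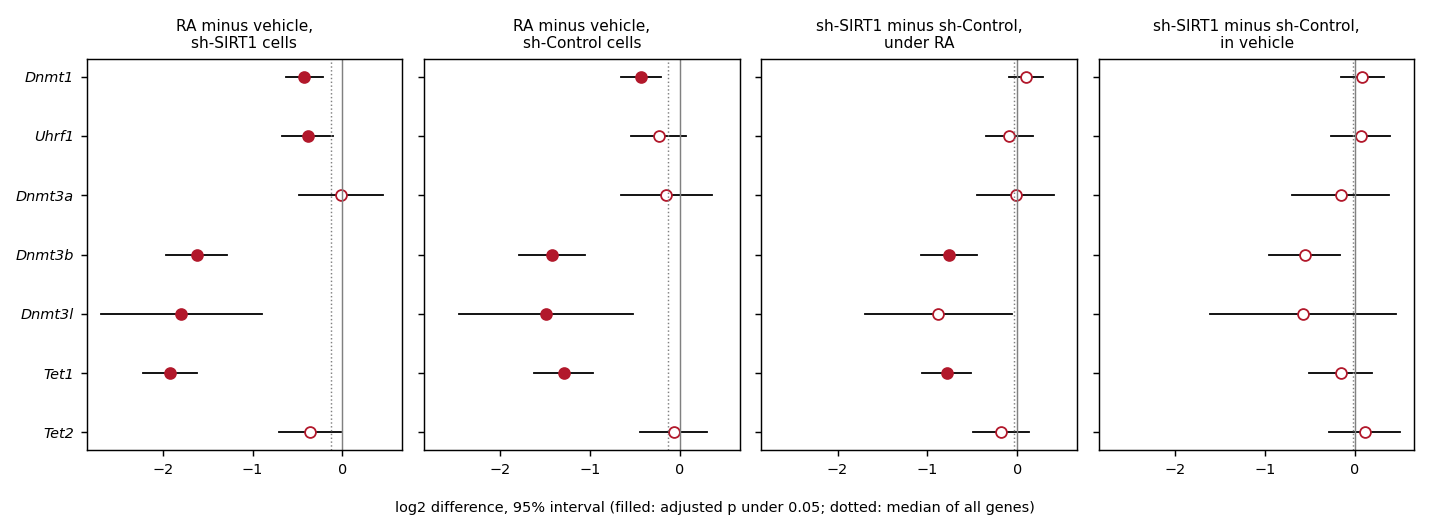
Log2 difference (horizontal axes) of the 7 genes in 4 comparisons (panels), with 95% intervals from limma. Filled points passed an adjusted p of 0.05 and dotted lines mark the median of all genes. Under RA, Dnmt3b, Dnmt3l and Tet1 lie between -1.92 and -1.29 in both lines, and Dnmt3a lies at -0.01 and -0.15.

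The order of the groups differed between members. For Dnmt3b, Dnmt3l and Tet1 the mean was lowest in sh-SIRT1 cells under RA, then sh-Control cells under RA, sh-SIRT1 cells in vehicle and sh-Control cells in vehicle. For Dnmt3b no neighbours in this order overlapped. For Tet1 the 2 vehicle groups overlapped. For Dnmt3l sh-Control cells under RA overlapped with both neighbours. For Dnmt1 both RA groups were below both vehicle groups and the lines overlapped within each treatment. For Uhrf1 the means had that order, and all neighbouring groups overlapped. For Dnmt3a and Tet2 all neighbouring groups overlapped.

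Over the 16 arrays, each member's pattern was set beside that of every gene with a symbol, as the root mean square (RMS) difference of log2 values centred on their mean. Nearest to Dnmt3b were Usp28 (0.21) and Slc37a1 (0.21), against a median over genes of 0.88. Nearest to Tet1 were Jakmip1 (0.16) and Spats1 (0.17), against 0.90, and nearest to Dnmt3l were Tor3a and Gcnt2 (0.37 each), against 1.08. For Dnmt1 they were Nop2 (0.064) and Ssrp1 (0.069), and for Uhrf1 Cd320 (0.080) and Myef2 (0.081), against medians of 0.38 and 0.39. Dnmt3a was nearest to Sfn (0.14) and Lasp1 (0.16), and Tet2 to Ss18l2 (0.12) and Polq (0.13), against 0.44 and 0.40. These values describe 16 arrays that share groups, slides and scaling.

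Genes that work beside these enzymes were taken as lists chosen with earlier results of these data known. Their counts stand beside 58.5% of all genes called under RA in sh-SIRT1 cells (23.3% higher, 35.2% lower) and 47.1% in sh-Control cells (19.9% higher, 27.2% lower). Of 16 partners in recruitment and silencing, 2 were higher and 13 lower under RA in sh-SIRT1 cells (median -0.50), and 2 higher and 9 lower in sh-Control cells (median -0.45). Hells, a chromatin remodeller needed for methylation of repeats, fell in both lines, to 2.37 ± 0.12 in sh-SIRT1 cells under RA against 3.22 ± 0.03 in vehicle, and to 2.59 ± 0.14 in sh-Control cells under RA against 3.31 ± 0.14 in vehicle (SD). Cdca7, its partner, changed by -0.70 in sh-SIRT1 and -0.75 in sh-Control cells. Hdac2, a histone deacetylase, changed by -0.99 in sh-SIRT1 cells. Suv39h1, a histone H3 lysine 9 methyltransferase, rose with RA by 0.60 ± 0.10 in sh-SIRT1 and 1.34 ± 0.11 in sh-Control cells. Further pairs of RA changes are given in the same order of lines. It was also higher in sh-SIRT1 cells by 1.21 ± 0.11 in vehicle (limma adjusted p = 5.96e-05) and by 0.47 ± 0.09 under RA, and its RA response was smaller in sh-SIRT1 cells (-0.74 ± 0.14, adjusted p = 0.0157). The other gene that rose with RA, named after its values were seen, was Uhrf2, the paralogue of Uhrf1 (0.49 and 0.63). With quantile normalisation 7 partners were lower in each line, and the shares of all genes given above do not apply to that scaling.

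Among 11 genes of oxidation and repair, 3 were higher and 3 lower under RA in sh-SIRT1 cells, and 2 higher and 4 lower in sh-Control cells (medians -0.16 and -0.03), a share called near that of all genes. Tet3, the third Tet oxidase, moved opposite to Tet1. It was at -1.89, -1.70, -1.91, -1.20, -1.83 and -1.61 in sh-SIRT1 cells under RA, against -3.04, -2.94 and -3.08 in vehicle. In sh-Control cells it was at -2.25, -1.90, -2.67 and -2.87 under RA, against -3.42, -3.24 and -3.15 in vehicle. It rose with RA by 1.33 ± 0.19 and 0.84 ± 0.21 and was 0.73 ± 0.17 higher in sh-SIRT1 than in sh-Control cells under RA (limma adjusted p = 0.00951). Of its 2 probes, the other differed in sign for RA in sh-Control cells. Gadd45b, a stress-induced gene linked to demethylation, rose by 1.78 and 1.45, and Apobec2, a member of the cytidine deaminase family, rose by 1.58 ± 0.44 in sh-SIRT1 cells. Gadd45a, a relative of Gadd45b, differed by -0.95 ± 0.18 between sh-SIRT1 and sh-Control cells under RA (adjusted p = 0.00273).

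Of 8 readers of methylated DNA, 2 were higher and 3 lower with RA in sh-SIRT1 cells, and 4 higher and 3 lower in sh-Control cells, beside 58.5% and 47.1% of all genes called. Zbtb4, a zinc finger reader, rose by 1.43 and 0.97, and Mbd2, which binds methylated CpG, by 0.59 and 0.70. Zbtb33 (Kaiso) fell, with changes of -0.74 and -0.82, as did Zbtb38, with -0.50 and -0.65. Of 13 genes that supply methyl groups and cofactors, 2 rose and 6 fell in sh-SIRT1 cells, and 1 rose and 5 fell in sh-Control cells, a share called near that of all genes. Tdh, the threonine dehydrogenase that mouse stem cells use to feed methylation, fell, with changes of -2.51 ± 0.26 and -2.01 ± 0.28, as did Shmt1, an enzyme of one-carbon metabolism, with -1.35 and -0.93. Idh1, which makes the 2-oxoglutarate that Tet enzymes use, rose by 0.91 and 0.82, and Idh2 by 1.03 in sh-SIRT1 cells. Trdmt1, a homologue that methylates transfer RNA, fell, with changes of -0.46 and -0.28. Of 4 regulators of the Dnmt3 genes that could be tested, Nanog rose by 0.72 and 1.30, Esrrb fell (-0.80 and -0.63), and the others were not called.

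Of 19 tested germline genes whose promoters are known to be methylated in somatic cells, 15 were higher and 0 lower under RA in sh-SIRT1 cells by limma (0 lower also at an unadjusted p under 0.05), and 12 higher and 0 lower in sh-Control cells, beside 23.3% and 19.9% of all genes called higher. Their medians were 1.03 and 0.77. Taf7l, a germ cell transcription factor subunit, rose by 2.78 and 2.62, and Sycp1, a protein of the synaptonemal complex, by 2.45 and 1.98. Brdt, a testis bromodomain protein not well above background in vehicle, was at least 3.80-fold and at least 3.04-fold higher. Such a gene passed the filter through the RA groups and could hardly be called lower. Between the hairpins 5 of the 19 were lower and 1 higher in vehicle, beside 8.70% of all genes called, and 8 lower and 2 higher under RA, beside 20.5%. Rhox5, a homeobox gene known to be silenced by promoter methylation, was at 3.68, 3.59, 3.74, 2.57, 3.61 and 2.40 in sh-SIRT1 cells and at 5.99, 7.38, 7.80 and 7.77 in sh-Control cells under RA. The 2 groups were far apart, by -3.97 ± 0.61 (limma adjusted p = 0.000646). In vehicle it was at 2.67, 4.30 and 4.29 in sh-SIRT1 cells and at 4.42, 7.55 and 7.56 in sh-Control cells, and array 1 of each line was the lowest (-2.76 ± 0.77, adjusted p = 0.0387). With RA arrays 1 and 2 alone 0 of the 19 were called between the hairpins under RA by limma, and 2 higher and 5 lower at an unadjusted p under 0.05. The share of 20.5% of all genes does not apply to that fit.

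**Figure D4:**
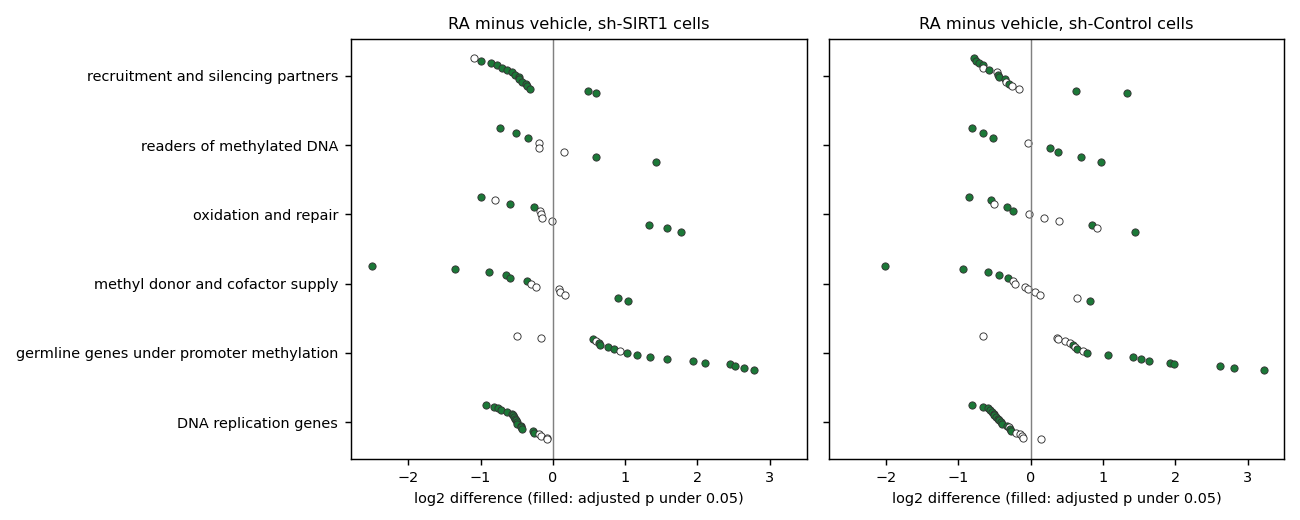
Log2 difference of RA minus vehicle (horizontal axes) for the genes of 6 lists (rows) in sh-SIRT1 cells (left) and sh-Control cells (right). Each point is a gene and filled points passed an adjusted p of 0.05. Germline genes lie mostly above 0 (15 and 12 called higher) and DNA replication genes mostly below (17 and 15 called lower).

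Genes of DNA replication, a measure of proliferation, were mostly lower under RA. In sh-SIRT1 cells 17 of 21 were lower, beside 35.2% of all genes, and in sh-Control cells 15 of 21, beside 27.2% (medians -0.50 and -0.41), and 0 were higher by limma (0 also at an unadjusted p under 0.05). The changes were -0.82 and -0.44 for Pcna, the sliding clamp, and -0.93 and -0.66 for Rrm2, a subunit of ribonucleotide reductase. They were -0.76 and -0.57 for Cdt1, a licensing factor, and -0.72 and -0.80 for Chaf1b, a subunit of a histone chaperone. With quantile normalisation 6 were lower in each line and 1 was higher in sh-SIRT1 cells. The shares of 35.2% and 27.2% of all genes do not apply to that scaling. The part of these genes in the changes of Dnmt1 and Uhrf1 was not tested.

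Markers of other cell types moved with RA as well, where 23.3% of all genes were called higher in sh-SIRT1 cells and 19.9% in sh-Control cells. Of the primitive endoderm markers, 9 and 8 of 12 were higher, of the trophectoderm markers 6 of 6 in both lines, of the 2-cell-like markers 5 of 5 in both lines, and of the fibroblast markers 6 and 4 of 7, sh-SIRT1 before sh-Control. Of the stem cell markers 6 and 4 of 7 were lower, beside 35.2% and 27.2% of all genes called lower. Of the 5 epiblast markers, 1 was higher and 2 lower in sh-SIRT1 cells, and 0 higher and 2 lower in sh-Control cells. The epiblast list summed to 3.08 to 3.37 under RA against 3.77 to 3.88 in vehicle in sh-SIRT1 cells. In sh-Control cells it summed to 2.95 to 3.99 under RA against 4.24 to 4.46 in vehicle. The summed level of the primitive endoderm list was 4.56 to 5.21 in sh-SIRT1 cells under RA, against 3.52 to 3.75 in vehicle. In sh-Control cells it was 4.00 to 6.57 under RA, against 3.90 to 4.38 in vehicle. Summed levels of the 2-cell-like list were 6.54 to 7.64 under RA, against -1.58 to 0.69 in vehicle, in sh-SIRT1 cells. In sh-Control cells they were 7.62 to 8.11 under RA, against -1.87 to -0.32 in vehicle. The trophectoderm list summed to 6.09 to 7.28 under RA against 3.25 to 3.66 in vehicle in sh-SIRT1 cells, and to 4.55 to 6.92 under RA against 3.12 to 3.26 in vehicle in sh-Control cells. The fibroblast list summed to 3.11 to 3.95 under RA against 1.40 to 1.61 in vehicle in sh-SIRT1 cells, and to 3.01 to 4.34 under RA against 3.05 to 3.16 in vehicle in sh-Control cells. Of the endoderm markers Pdgfra and Afp were below the level called well above background on all 6 vehicle arrays. On the sh-Control vehicle arrays the same held for 3 of 6 trophectoderm, 1 of 5 2-cell-like and 1 of 7 fibroblast markers. In sh-SIRT1 vehicle it held for 2 of 7 fibroblast markers. A gene detected only under RA passed the filter through the RA groups and could hardly be called lower, so these counts lean to higher. The highest endoderm sum under RA was that of a sh-Control array, and Gata6, a defining factor of that lineage, was at 3.03 on sh-Control RA array 1 and at 0.08 to 0.49 on the other 3. The part of these cell types in the change of the enzymes was not tested.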

How the data were processed

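Expression was measured on 16 1-colour Agilent arrays. The deposited intensities are processed Cy3 signals that Agilent Feature Extraction 9.5 (per the submitters' processing notes; 9.5.3.1 per the file headers) made with spatial and multiplicative detrending and without background subtraction, per the file headers. From them log2(intensity) minus the array's 75th percentile was computed, with control spots left out, outlier spots set to missing and the spots of a probe averaged. Kept were the 26375 of 41174 probes that the scanner software called well above background on every array of 1 or more groups, and the probe with the highest mean stood for its gene (17650 genes). Probe positions are those of the file headers (mm7). Names came from the accession in the RefSeq table (GRCm38.p6) for 22951 probes, from a symbol for 6659, from a synonym for 3109 and otherwise from the files.

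Groups were fitted together in limma 3.58.1 (R 4.3.3; lmFit, eBayes, Benjamini-Hochberg over all genes, adjusted p under 0.05), and the code was tested on simulated data. Same-numbered arrays of the 2 lines deviated together from their group means (correlations over 17600 genes of 0.517, 0.367 and 0.408 in vehicle and 0.515, 0.543, 0.463 and 0.431 under RA, while arrays of different number gave -0.506 to 0.331 in vehicle and -0.625 to 0.521 under RA, with RA arrays 3 to 5 as alike across numbers as within them), so that a fit with pairs within treatment was set beside the main one. RA and vehicle arrays of the same number did not pair (-0.21 to 0.22). The members, lists and rules were chosen with earlier results of these data known. All members are named, at most 4 called genes per list with the largest differences, and the 2 genes nearest to each member. Alternatives were background correction, scaling, probe choice and filter, slide and replicate blocks, and arrays left out. Leaving out RA arrays 1 and 2, RA arrays 3 to 6 or vehicle arrays 1 was chosen after seeing the data.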

Additional observations from a re-analysis of the deposited data

Results flagged for a closer look

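Of 14 sets of arrays tested, each a gene in an RA group, 2 had an array far from the rest. Independent arrays of 1 population would give about 1 in 20 by chance. Both sets are of sh-Control RA, where arrays 3 and 4 were close to each other and array 1 differed from the others in Y-linked signal. That rate may therefore not hold for them. Uhrf1 was at 4.10 on sh-Control RA array 2, against 3.54 to 3.62 on the other 3, a gap of 0.863 of the whole range. Tet2 was at -0.84 on sh-Control RA array 1, against -1.20 to -1.16 on the other 3, a gap of 0.889 of the whole range.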

How the results depend on the processing

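Over 33 settings, 48 of the single differences changed sign, and 0 of these was called in either setting. The number of members called between the hairpins in vehicle was 0, beside 8.70% of all genes called. It was 1 (Dnmt3b) with the replicate block, with the replicate block within treatment and with only the arrays of the groups compared. The replicate block within treatment also gave a called Dnmt3l under RA. In that fit 19.3% of all genes were called in vehicle and 28.4% under RA. The number whose RA response differed between the lines was 0, beside 3.73% of all genes called. It ranged from 0 to 1 with single arrays left out. It was 1 (Tet1) without RA arrays 1 and 2, which keeps only arrays 3 and 4 of sh-Control RA. With RA arrays 3 to 6 left out, 0 members were called between the hairpins under RA and 3 under RA in sh-SIRT1 cells. For the other settings the share of all genes called is not given here, so a changed count there is not a result about the members alone. The replicate block within treatment changed no other call between the hairpins. The cause of these changes in calls was not tested. Where arrays were left out, their number was smaller as well.

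With arrays scaled to their median, the share of calls that were lower was 74.1% under RA in sh-SIRT1 cells (60.1% with the 75th percentile), 68.1% in sh-Control cells (57.7%) and 29.4% between the hairpins in vehicle (49.3%), while the medians of all genes moved to -0.38, -0.26 and 0.11. That scaling gave -0.12 for the difference of RA effects of Dnmt1. Quantile normalisation gave Dnmt3a 0.032 between the hairpins under RA, 0.28 under RA in sh-SIRT1 cells and 0.062 in sh-Control cells. The mean of the probes gave Dnmt3a 0.10 between the hairpins under RA and 0.058 under RA in sh-SIRT1 cells, and Tet2 -0.13 between the hairpins in vehicle and 0.066 for the difference of RA effects. The slide block gave Dnmt3a 0.13 between the hairpins under RA and 0.12 under RA in sh-SIRT1 cells. Uhrf1 between the hairpins under RA was 0.0064 with both replicate blocks, 0.011 with sh-Control RA array 1 alone and 0.0068 without RA arrays 3 to 6. With sh-Control RA array 1 alone, Dnmt3a between the hairpins was 0.43 and Tet2 under RA in sh-Control cells was 0.19. With sh-Control RA arrays 3 and 4 as 1 sample, Dnmt3a between the hairpins under RA was 0.11.

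Without RA arrays 1 and 2, Dnmt1 was -0.021 between the hairpins under RA and -0.10 for the difference of RA effects. Dnmt3a was then 0.068 under RA in sh-SIRT1 cells, 0.25 in sh-Control cells and -0.18 for the difference, and Dnmt3l was 0.12 for the difference. Without RA arrays 3 to 6, Dnmt3a was 0.21 between the hairpins and Tet2 0.0093 under RA in sh-Control cells. Without vehicle arrays 1, Dnmt3a was 0.24 under RA in sh-SIRT1 cells and Tet2 0.15 in sh-Control cells. With single arrays left out, Tet2 ranged from -0.21 to 0.15 under RA in sh-Control cells and from -0.077 to 0.33 between the hairpins in vehicle. Dnmt3a ranged from -0.15 to 0.24 under RA in sh-SIRT1 cells and from -0.17 to 0.12 between the hairpins under RA, and Uhrf1 from -0.15 to 0.043 there. The difference of RA effects ranged from -0.041 to 0.086 for Dnmt1, from -0.012 to 0.39 for Dnmt3a and from -0.59 to 0.038 for Dnmt3l.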
